A study of Mus musculus with 31 samples.

Results

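Among the kidney transcripts of cisplatin-treated mice, 7 genes better known from neurons or sensory cells were followed: Zfp365, Celf5, Ano3, Olfr1316, Ngfr, Kcnh1 and Htr6. They were taken by symbol from a table of 55487 genes, and were chosen by their levels under cisplatin, and for Htr6 also by genotype, in earlier results of the same libraries, and all 7 were among the 19268 genes with enough counts to be tested. Whole kidneys came from male B6 mice that were either wild type (WT) or of the Nbl1 genotype called HET in the labels. Treatment with cisplatin or with phosphate-buffered saline (PBS) lasted 4 weeks and began at 8 weeks of age. Kidneys were taken 3 days after treatment at a stated age of 11 weeks, which is less than start and duration add up to. There were 8 WT and 7 HET animals under PBS and 8 of each genotype under cisplatin, with 1 library from each numbered animal. The cisplatin dose, the kind of Nbl1 allele and the strand setting of the counting were not given in the sources used here.

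Cisplatin binds DNA, forms cross-links and is taken up by the proximal tubule, which it injures. Genes of differentiated neurons and sensory cells are normally kept silent in epithelia, in part by the repressor REST with its corepressors, and olfactory receptor genes lie in clusters of which an olfactory neuron expresses a single allele. Levels below are CPM, counts scaled to a common library total after TMM scaling, given as lowest, median and highest library of a group, and fold changes stand on the log2 scale beside the standard error (SE).

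The 7 genes did not behave as a single set. Zfp365, Celf5, Ano3 and Olfr1316 were close to 0 in PBS kidneys and far higher in every cisplatin kidney of both genotypes. Kcnh1 had overlapping levels with and without cisplatin, so its place among genes raised by the drug does not hold in these data, and its medians were lower in HET than in WT kidneys. Ngfr had its highest median in HET cisplatin kidneys and a flat level in WT, and Htr6 followed the genotype. The cisplatin contrasts, and the genotype contrast for Htr6, were used in choosing the genes and are given as descriptions with no test. The same holds for the difference between the genotypes' cisplatin responses.

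Depth was 24650000 to 37300000 counts per library (rounded to 4 digits) and tended to be lower under cisplatin. In WT every cisplatin library was below every PBS library, while the HET ranges overlapped in part. The TMM factors were 0.838 to 0.9072 in the PBS libraries and 1.062 to 1.205 in the cisplatin libraries. The mitochondrial share was 7.96% to 8.96% in the PBS libraries and 2.53% to 5.12% in the cisplatin libraries. Of 10 kidney tubule markers, 8 were lower and 1 higher under cisplatin in each genotype, and in bulk tissue fewer cells of a type and less RNA per cell cannot be told apart. Several libraries stood apart. Nbl1 was near absent in HET PBS 1 and 6 (0.106 and 0.434 CPM) and in HET cisplatin 3 and 4 (1.08 and 0.861 CPM). The remaining HET libraries had 3.26 to 4.2 CPM under PBS and 4.68 to 13.9 CPM under cisplatin. WT PBS 6 had 3.71 CPM of Nbl1, within that HET PBS range and below the other WT PBS libraries. By their Nbl1 and Htr6 levels, WT PBS 6 and the HET libraries with Nbl1 near absent are the 5 treated as going against their label. HET cisplatin 6 and WT cisplatin 6 lay at the low end of the first principal component of the cisplatin libraries (-58.54 and -30.33). HET cisplatin 4 held 707 CPM of 8 adrenal cortex markers, against 0.944 to 3.43 CPM in the other 30 libraries. Animals numbered in the 600 series make up all 8 HET cisplatin libraries but 6 of 8 WT cisplatin, 4 of 8 WT PBS and 4 of 7 HET PBS libraries, so the number range is partly confounded with the group.

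The promoters of the 3 most abundant of these genes are shown because their transcripts moved together among the cisplatin kidneys. Each is the 250 bases before the RefSeq start (GRCm38.p6, minus strand, read 5′ to 3′): chr10:67912663-67912912 for Zfp365, chr10:81482700-81482949 for Celf5 and chr2:110950245-110950494 for Ano3, where the RefSeq start lies 679 bases from the GENCODE start. Capitals mark motif matches.
Zfp365: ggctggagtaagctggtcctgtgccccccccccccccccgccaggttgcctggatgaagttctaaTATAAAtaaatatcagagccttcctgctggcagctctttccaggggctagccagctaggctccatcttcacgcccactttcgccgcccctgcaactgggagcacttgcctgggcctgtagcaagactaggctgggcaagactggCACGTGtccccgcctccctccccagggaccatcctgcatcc
Celf5: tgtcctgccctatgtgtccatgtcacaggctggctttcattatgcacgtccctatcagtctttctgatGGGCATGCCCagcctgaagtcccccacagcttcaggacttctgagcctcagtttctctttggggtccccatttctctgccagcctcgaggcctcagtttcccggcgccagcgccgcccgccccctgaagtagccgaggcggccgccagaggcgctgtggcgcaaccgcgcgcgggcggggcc
Ano3: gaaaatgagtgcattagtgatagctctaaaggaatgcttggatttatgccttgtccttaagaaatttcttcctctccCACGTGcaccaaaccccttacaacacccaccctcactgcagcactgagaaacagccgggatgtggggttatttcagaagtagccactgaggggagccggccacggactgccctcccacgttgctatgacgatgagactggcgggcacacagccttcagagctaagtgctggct
The motifs searched, on both strands, were the TATA box (TATAAA), the E-box (CACGTG), the AP-1 site (TGANTCA), the CRE (TGACGTCA), the left part of the REST site (TTCAGCACC), its right part by name and the p53 decamer by name. Zfp365 holds TATAAA at 185 to 180 bases and CACGTG at 41 to 36 bases before the start, Celf5 a p53 decamer at 182 to 173 bases, and Ano3 CACGTG at 173 to 168 bases. These motifs occur in 13.0% (TATAAA), 6.05% (CACGTG) and 7.18% (p53 decamer) of 27025 promoter windows of the same length, so each match is a description of the letters only. The left and right parts of the REST site were in 0.285% and 0.104% of the windows and in none of the 7 member windows.

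Zfp365 (chr10:67886103-67912662, minus strand) encodes a zinc finger protein, described in neurons and in genome stability. In WT kidneys its level was 0.0333, 0.126 and 0.211 CPM under PBS and 11.8, 31.3 and 35.2 CPM under cisplatin. In HET kidneys it was 0.0634, 0.135 and 0.347 CPM under PBS and 10.2, 30.8 and 41.7 CPM under cisplatin. Every cisplatin library was far above every PBS library, and within each treatment the genotypes overlapped. The log2 fold change of cisplatin over PBS was 7.84 (SE 0.34) in WT and 7.57 (SE 0.35) in HET, the rank 9 and rank 13 from the highest among 19268 genes. Summed counts rose from 28 to 6950 in WT, a ratio of 237 after scaling with a 95% counting interval of 164 to 357, and from 31 to 8078 in HET, a ratio of 198 (139 to 291). HET against WT gave 0.35 (SE 0.63, adjusted p = 1) under PBS and 0.09 (SE 0.2, adjusted p = 0.973) under cisplatin by edgeR's quasi-likelihood test. The difference between the genotypes' responses was -0.27 (SE 0.65).

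Celf5 (chr10:81459227-81482709, minus strand) encodes an RNA-binding protein of the CELF family, which regulates splicing and is found mainly in brain. WT kidneys had 0, 0.0667 and 0.126 CPM under PBS and 3.45, 9.24 and 14 CPM under cisplatin. HET kidneys had 0, 0.0317 and 0.104 CPM under PBS and 2.05, 7.58 and 11.8 CPM under cisplatin. PBS libraries were at or near 0 and no cisplatin library came down to them in either genotype. The log2 fold changes were 7.05 (SE 0.44) in WT and 7.27 (SE 0.49) in HET. The counts behind them were 15 and 2214 in WT (ratio 141, 85.3 to 252) and 9 and 2032 in HET (ratio 171, 90.1 to 375). HET against WT under cisplatin was -0.25 (SE 0.26) and did not pass (edgeR adjusted p = 0.928).

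Ano3 (chr2:110655201-110950923, minus strand) encodes a membrane protein of the anoctamin (TMEM16) family known from brain, where variants of the human gene cause dystonia. Its WT level was 0, 0.0825 and 0.307 CPM under PBS and 13.4, 29.8 and 38.9 CPM under cisplatin. HET levels were 0, 0.134 and 0.157 CPM under PBS and 4.03, 26 and 45.1 CPM under cisplatin. The lowest value, in HET cisplatin 6, still exceeded the highest PBS value. Log2 fold changes of 7.91 (SE 0.45) and 8.1 (SE 0.5) placed the gene at rank 8 from the highest in both genotypes. The genotype difference under cisplatin was -0.11 (SE 0.27, edgeR adjusted p = 0.976). Muc15, which lies inside Ano3 on the other strand, had 19 counts in the 16 cisplatin libraries and 4 in the 15 PBS libraries.

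Olfr1316 (chr2:112126996-112134977, minus strand) encodes an olfactory receptor, an odorant-sensing receptor of olfactory neurons. It had 0, 0.0166 and 0.0377 CPM in WT PBS and 0.313, 1.26 and 2 CPM in WT cisplatin libraries. The HET values were 0, 0 and 0.0347 CPM under PBS and 1.25, 1.73 and 2.55 CPM under cisplatin. Groups by treatment did not overlap, but the level under cisplatin was an order of magnitude below that of Zfp365 and Ano3. The log2 fold changes were 5.88 (SE 0.44) in WT, on 4 and 306 counts (ratio 73.1, 28.3 to 270), and 7.67 (SE 0.52) in HET, on 1 and 487 counts (ratio 369, 66 to 14600). HET exceeded WT under cisplatin by 0.56 (SE 0.26), which did not pass the test over all genes (edgeR adjusted p = 0.886). Of the 31 deposited values of this gene, 16 are not whole numbers, and olfactory receptor genes have close copies, so its count is uncertain.

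**Figure D1:**
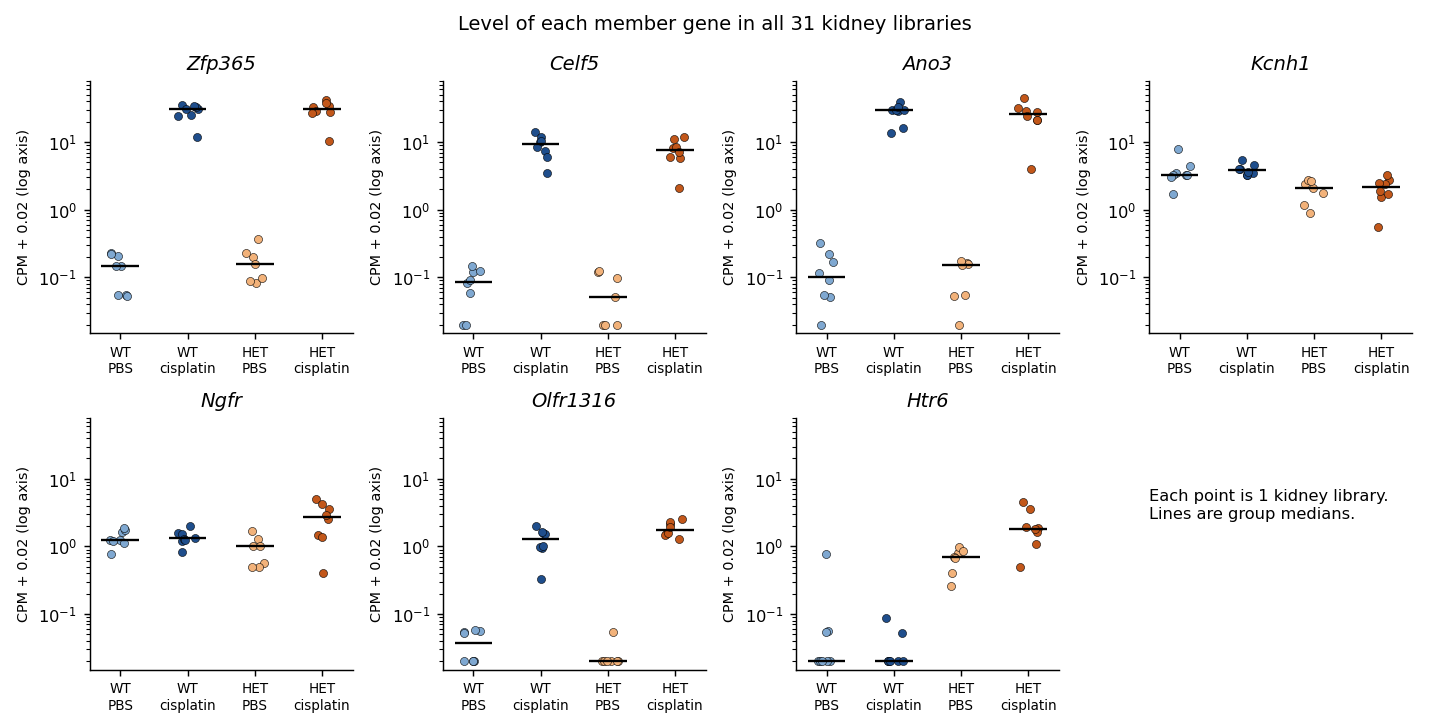
CPM of each member gene in 31 kidney libraries (log axis, 0.02 added, points are libraries and lines are group medians). Zfp365, Celf5, Ano3 and Olfr1316 separate by treatment without overlap, Htr6 separates the genotypes under cisplatin, Kcnh1 has lower medians in HET, and Ngfr is spread widely in HET cisplatin.

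Every cisplatin library lay above every PBS library for these 4 of the 7 genes in both genotypes. The same was true of 14.4% of all tested genes in WT kidneys and of 11% in HET kidneys, and 63.2% and 59% were called at an adjusted p under 0.05 in either direction. Because the rule used this contrast, nothing is read from the difference. Over all alternatives, those without the libraries that stood apart or went against their label included, the log2 fold change in WT ran from 7.44 to 8.23 for Zfp365, from 6.87 to 7.44 for Celf5, from 7.44 to 8.41 for Ano3 and from 5.45 to 6.25 for Olfr1316. In HET the ranges were 7.43 to 8.12, 6.84 to 7.68, 7.87 to 8.51 and 6.52 to 8.82.

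Over the 16 cisplatin libraries, with group means removed, the correlation of log2 CPM was 0.96 between Zfp365 and Celf5, 0.84 between Zfp365 and Ano3 and 0.82 between Celf5 and Ano3, while Olfr1316 gave 0.17 to 0.4 with these. With the same 3 genes, Kcnh1 gave 0.63 to 0.68 and Ngfr 0.49 to 0.74. These values are a description, in which all genes share the same libraries, and HET cisplatin 6 was lowest of its group for 6 of the 7 genes. Without WT cisplatin 6 and HET cisplatin 6, a setting added after the data were seen, the value stayed high between Zfp365 and Celf5, at 0.91, and was 0.53 between Zfp365 and Ano3 and 0.5 between Celf5 and Ano3. With the same 3 genes it was then -0.12 to 0.22 for Kcnh1 and -0.12 to 0.29 for Ngfr. The likeness values that follow use all 16 libraries. The genes most like Zfp365 among 15593 were Alox5 (0.981), Fbxw9 (0.97) and Mmp15 (0.966). Those most like Celf5 were Ctxn1 (0.98), Arhgef4 (0.974) and Alox5 (0.973), and those most like Ano3 were Ano1 (0.977), Golm1 (0.976) and Mmp14 (0.965).

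The extent of injury was summarised as the mean log2 CPM of 22 tubular injury markers. Of 14 relations of a member with this score within a cisplatin group, 2 passed after adjustment over the 14 by Pearson's r in an exact permutation test. The share of all tested genes with such a relation was not counted, so nothing particular to the members is read from this. In the 8 WT cisplatin libraries, Zfp365 gave r = 0.91 (exact permutation p = 0.00134, adjusted 0.0187; rho = 0.88, adjusted 0.101), and Celf5 gave r = 0.88 (exact p = 0.00618, adjusted 0.0432; rho = 0.79, adjusted 0.13). Neither passed without WT cisplatin 6 and 4, the libraries farthest from the median score, when r fell to 0.7 for Zfp365 (exact p = 0.131) and to 0.33 for Celf5 (exact p = 0.51). The calls thus need those libraries. At n = 6 with a narrower score range a call is easily lost, so this does not show whether the relations depend on them. With Havcr1, a tubular injury marker, used alone in WT cisplatin, r was -0.72 for Zfp365 and -0.5 for Celf5. WT cisplatin 6 had 438 CPM of Havcr1 beside the lowest Zfp365 of its group. The sign is given for WT only: HET cisplatin 6 had the lowest Havcr1 of its group (31.6 CPM) beside the lowest Zfp365 and Celf5. HET relations were 0.86 for Zfp365, 0.81 for Celf5 and 0.83 for Ano3, with adjusted exact permutation p of 0.151, 0.151 and 0.152, and they fell to 0.21, 0.22 and -0.4 without HET cisplatin 6 and 1.

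**Figure D2:**
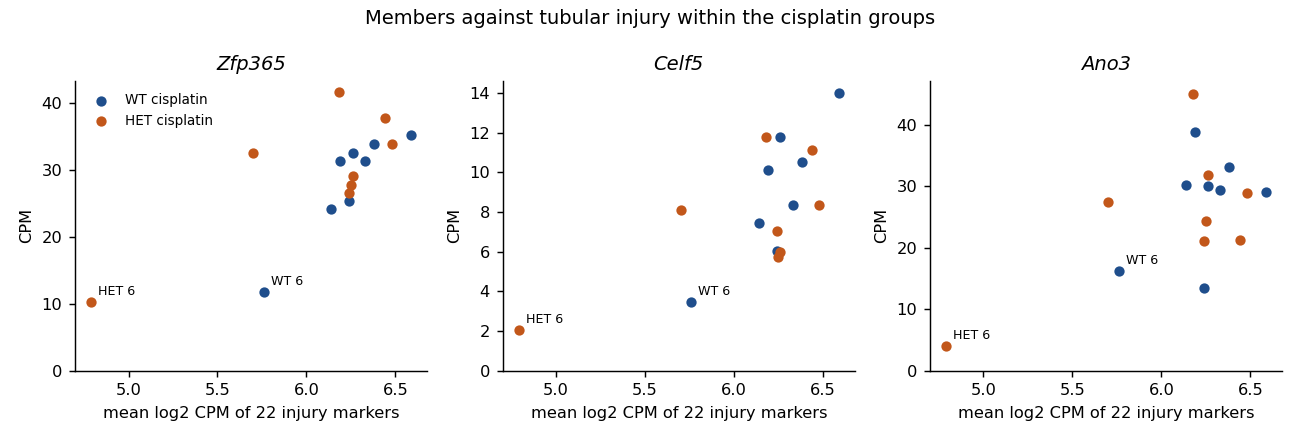
CPM of Zfp365, Celf5 and Ano3 against the mean log2 CPM of 22 injury markers in the 8 WT and 8 HET cisplatin libraries. WT cisplatin 6 and HET cisplatin 6 lie at the low end of score and level in their groups.

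**Figure D3:**
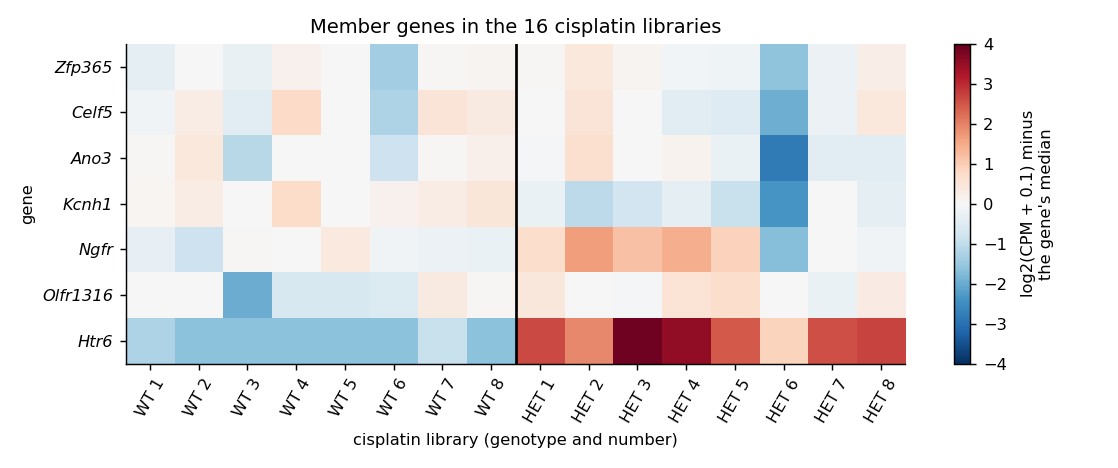
Log2(CPM + 0.1) of the 7 genes in each of the 16 cisplatin libraries, as the difference from the gene's median. HET cisplatin 6 is lowest of its group for 6 of the 7 genes, and Htr6 separates the genotypes.

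Relatives of these genes were read from lists chosen with earlier results known, and counted without the members. All 4 other tested CELF genes rose in both genotypes: Celf3 by 2.73 (SE 0.44) in WT, Celf4 by 1.86 (SE 0.24), Celf2 by 0.71 (SE 0.092) and Celf1 by 0.12 (SE 0.035). Celf3, with 46 counts in WT PBS and 324 in WT cisplatin libraries, had enough counts to be tested only through the cisplatin libraries. Of 7 other anoctamins, the WT kidneys showed 5 risers and 2 fallers, against 5 and 1 in HET. Over all tested genes, 33.6% rose and 29.6% fell in WT, and 31% and 28% in HET. Ano9 rose by 1.55 (SE 0.088) and Ano1, a calcium-activated chloride channel, by 0.97 (SE 0.19) in WT, and Ano4 fell by 1.11 (SE 0.26). The median was 0.06 over all tested genes in each genotype. It was 1.28 for the CELF genes of WT and 0.89 for those of HET, and 0.25 and 0.23 for the anoctamins.

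Of the 4 other tested KCNH potassium channels, 2 rose and 2 did not pass in each genotype, and all 4 rose when scaled by library totals. Kcnh8, counted among the 2, was at 0.0267 ± 0.055 CPM in WT PBS and 1.26 ± 0.54 CPM in WT cisplatin libraries (SD, n = 8). Its log2 fold change was 5.41 (SE 0.61) in WT and 2.96 (SE 0.51) in HET. Kcnh8 had 6 counts in WT PBS and 306 in WT cisplatin libraries, and 26 and 275 in HET. It had enough counts to be tested only through the cisplatin libraries, so its values are a description with no test. Kcnh5 did not pass in either genotype, at 0.04 and 0.1. The corresponding values for Kcnh1 itself were 0.06 (SE 0.26) and 0.08 (SE 0.29), and they stayed between -0.12 and 0.46 in WT and between -0.05 and 0.49 in HET over the alternatives.

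**Figure D4:**
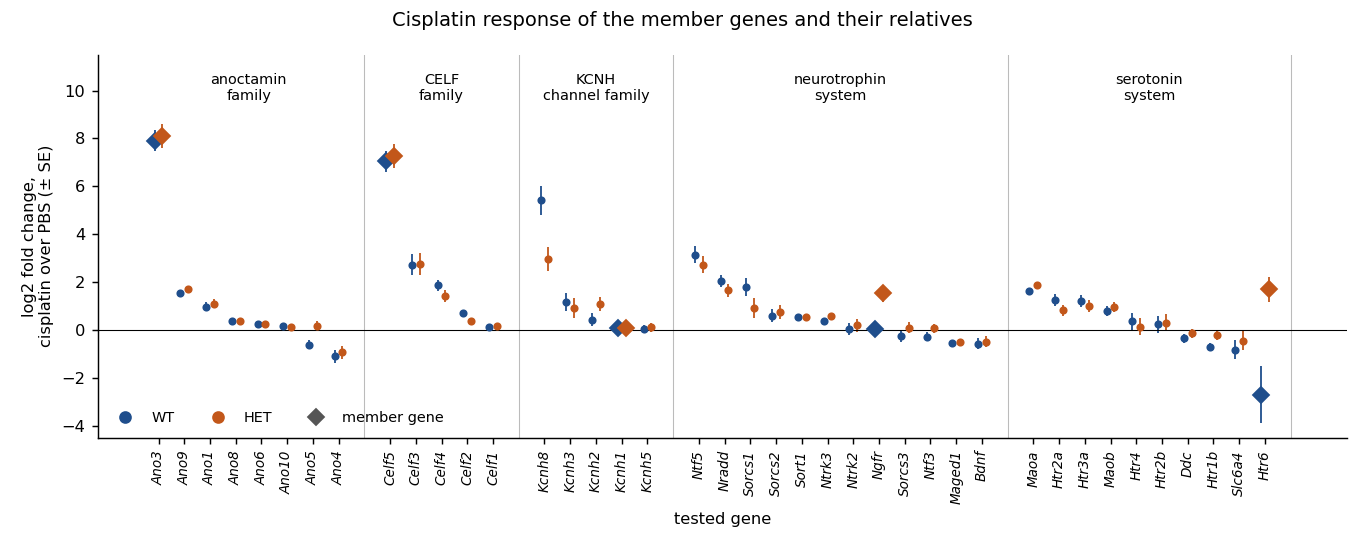
Log2 fold change of cisplatin over PBS (± SE) for tested genes, other than those not reported here, of the anoctamin, CELF, KCNH, neurotrophin and serotonin lists in WT and HET, with member genes as diamonds. Ano3 and Celf5 stand above their relatives, Kcnh1 lies near 0, and the WT and HET values of Htr6 and Ngfr lie apart.

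Markers of whole cell types did not follow the same course. Of 18 pan-neuronal markers 10 were tested, with 4 higher and 3 lower in WT, and 3 higher and 5 lower in HET. Their summed level was 30 to 34.2 CPM in WT PBS and 29.2 to 35.5 CPM in WT cisplatin libraries. Eno2, a glycolytic enzyme of neurons, rose by 2.37 (SE 0.26), and Syp, a synaptic vesicle protein, fell by 1.13 (SE 0.14) in WT. Of 8 tested Schwann cell markers, 4 rose and none fell in WT, led by Mbp at 0.77 (SE 0.094), and 2 rose and 1 fell in HET. Rest, the repressor of neural genes, did not pass at 92.7 ± 6.9 CPM under PBS and 96.7 ± 9.2 CPM under cisplatin in WT (SD, n = 8; log2 fold change 0.06; edgeR adjusted p = 0.405), although it was higher by 0.46 when scaled by library totals (adjusted p = 7.15e-07). Its corepressor Rcor1 fell by 0.44 (SE 0.055) in WT and by 0.4 (SE 0.057) in HET, but was at -0.04 and 0 when scaled by library totals. Rcor1 does not stand for its list of 10 neural gene repressors, Rest included. Of these, 4 were higher and 2 lower in WT, against 2 and 1 in HET. Scaled by library totals, 9 of the 10 were higher and none lower in each genotype. Of 30 p53 target genes, 25 rose in WT (median 2.2) and 24 in HET (median 2.07). Whether any of these groups bears on the 4 genes was not tested.

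Chromosomal neighbours did not share the rise in most cases. Beside Ano3, Slc5a12, a monocarboxylate transporter, fell by 1.72 in WT and by 1.41 in HET. Ncln and Nfic on either side of Celf5 fell by 0.39 and 0.52 in WT. The long noncoding RNA gene Gm47078, 400345 bases from Zfp365 and beyond Arid5b, had 241 summed counts under PBS and 1 under cisplatin in WT. In HET it had 189 and 3. Gm47078 had enough counts to be tested only through the PBS libraries, so these values are a description with no test. In the same region, Ado rose by 0.27 in WT and by 0.31 in HET, and Arid5b rose by 0.23 in WT.

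The exception was Olfr1316. In the cluster of 15 olfactory receptor genes and pseudogenes that holds it (chosen after its values were seen), Olfr1314 had 276 counts under cisplatin and 5 under PBS and Olfr1315-ps1 had 155 and 3. Both were higher under cisplatin in both genotypes, Olfr1314 by 7.08 in WT (SE 0.81) and 4.21 in HET (SE 0.61). The values of Olfr1315-ps1 were 4.83 in WT (SE 0.76) and 4.87 in HET (SE 0.88). These are descriptions with no test, because the cluster was chosen after its values were seen. Both genes also had enough counts to be tested only through the cisplatin libraries. Olfr1313 and Olfr1318 went from 0 counts in the 15 PBS libraries to 56 and 45 in the 16 cisplatin libraries. Of the 5 genes of the cluster that were tested, the other two were Olfr1307 and Olfr1312, which did not pass. Olfr1307 had 29835 counts under PBS and 38220 under cisplatin (log2 fold change 0.12, edgeR adjusted p = 0.232 in WT) and Olfr1312 had 225 and 352 (0.45, adjusted p = 0.124). Of the 10 that were too low to be tested, Olfr1311, Olfr1319-ps1 and Olfr1317 also had 0 counts under PBS, and 10, 7 and 4 under cisplatin. Over 127 other tested olfactory receptor genes, 22 rose, 7 fell and 98 did not pass in WT, with a median of 0.11. Scaled by library totals, 76 rose and 3 fell in WT (median 0.51), and 84 and 4 in HET, so these counts depend on the scaling. Olfr1316 made up 0.205% of all olfactory receptor counts under cisplatin. Of 31 deposited values each, 16 are not whole for Olfr1316 and for Olfr1315-ps1, and 0 for Olfr1314, Olfr1313 and Olfr1318. For Olfr1307 and Olfr1312, which did not pass, all 31 are not whole. Nearly identical receptor sequences can share reads, so single genes of the cluster are uncertain.

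**Figure D5:**
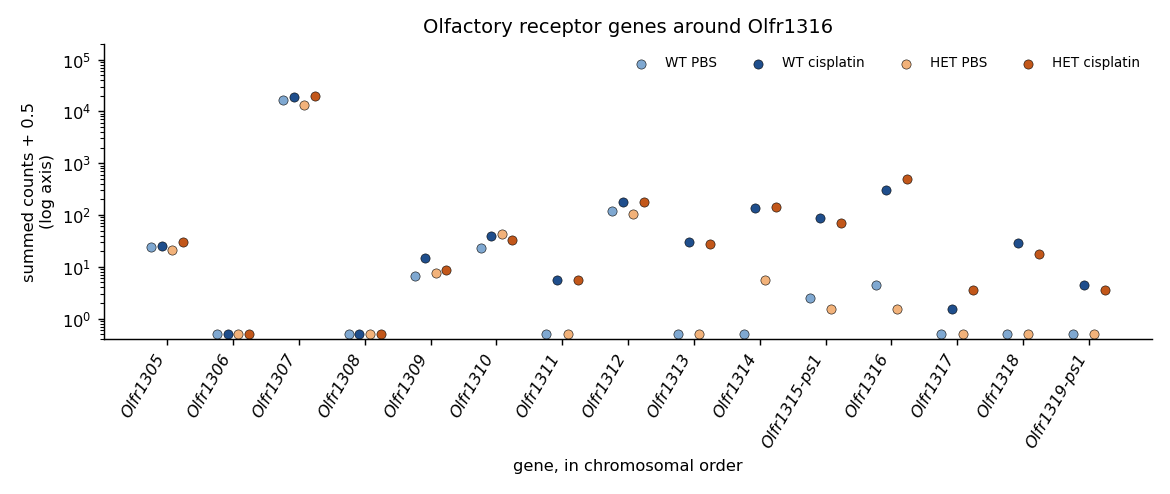
Summed counts (log axis, 0.5 added) of the 15 genes of the cluster in chromosomal order, one point per group. Genes from Olfr1313 to Olfr1318 are at or near 0 under PBS and higher under cisplatin, whereas Olfr1307 and Olfr1312 are similar in all groups.

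Kcnh1 (chr1:192190774-192510159, plus strand) encodes a voltage-gated potassium channel (Kv10.1) of brain. It had 1.67, 3.24 and 7.97 CPM in WT PBS and 3.23, 3.8 and 5.41 CPM in WT cisplatin libraries. In HET libraries it had 0.887, 2.06 and 2.76 CPM under PBS and 0.544, 2.14 and 3.27 CPM under cisplatin. Cisplatin and PBS overlapped in both genotypes, and 7 of 8 HET cisplatin libraries lay below every WT cisplatin library. The log2 value of HET over WT was -0.96 (SE 0.28) under PBS and -0.94 (SE 0.27) under cisplatin, but neither passed over all genes (edgeR adjusted p = 0.67 and 0.874, unadjusted p = 0.00198 and 0.00144). Under cisplatin, 1 of 19268 genes (0.00519%) was called for the genotype. It was Htr6, which was chosen on this contrast, so nothing is read from it. None was called under PBS, where 968 genes had an unadjusted p under 0.05 and DESeq2 called 5. Among animals of the 600 series the values were -1.07 and -0.96, and without the 5 libraries against their label -0.66 and -0.96. Over the alternatives they ran from -1.07 to -0.66 under PBS and from -1.06 to -0.8 under cisplatin. The end of Kcnh1 overlaps Hhat on the other strand, whose genotype values were -0.19 and -0.01, and without the strand setting their reads there cannot be told apart.

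Ngfr (chr11:95568818-95587735, minus strand) encodes the p75 neurotrophin receptor, which binds neurotrophins and is seen in nerve, Schwann cells and stroma. In WT the level was 0.753, 1.23 and 1.87 CPM under PBS and 0.802, 1.29 and 1.98 CPM under cisplatin. The HET level was 0.468, 0.994 and 1.68 CPM under PBS and 0.384, 2.7 and 4.95 CPM under cisplatin. Only 5 of 8 HET cisplatin libraries exceeded all HET PBS libraries, with HET cisplatin 2, 4 and 3 highest and HET cisplatin 6 lowest. The cisplatin value was 0.02 (SE 0.33) in WT and 1.52 (SE 0.35) in HET. Their difference was 1.5 (SE 0.48). It is made of the cisplatin contrasts used in choosing the genes, so it is a description with no test. No gene was called for this difference by edgeR or DESeq2, and 1079 had an unadjusted p under 0.05. Without WT cisplatin 6, HET cisplatin 4 and HET cisplatin 6 the difference for Ngfr was 1.56, and without the 5 libraries against their label 1.17. Within the 600 series of animals it was 1.51. HET cisplatin 4, the library with adrenal cortex markers, had 4.22 CPM of Ngfr. Schwann cell markers summed to 142 to 171 CPM in WT cisplatin and 101 to 171 CPM in HET cisplatin libraries. Of 12 fibroblast and pericyte markers, 7 rose and 2 fell in each genotype, where 33.6% (WT) and 31% (HET) of all tested genes rose. These markers summed to a median of 504 CPM in WT cisplatin and 564 CPM in HET cisplatin libraries. HET cisplatin 6 and 2, lowest and highest for Ngfr, were also lowest and highest here (390 and 670 CPM). Other libraries differed in order: HET cisplatin 8 had 628 CPM beside 1.34 CPM of Ngfr, and HET cisplatin 3 had 528 CPM beside 3.5 CPM. The part of either list in the result was not tested. Of the 31 values of Ngfr, 13 are not whole.

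Among 13 other neurotrophin genes, WT kidneys had 6 higher and 3 lower, and HET kidneys 6 higher and 2 lower. Of the ligands, Ntf5 rose by 3.14 (SE 0.36) in WT and by 2.73 (SE 0.36) in HET. With 37 counts in WT PBS and 349 in WT cisplatin libraries, Ntf5 had enough counts to be tested only through the cisplatin libraries. The sorting receptor Sort1 rose by 0.53 (SE 0.062) in WT.

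Htr6 (chr4:139061108-139075570, minus strand) encodes a serotonin receptor of brain and lies 6713 bases from Nbl1 on chromosome 4, beside the gene whose genotype distinguishes the mice. The WT level was 0, 0 and 0.756 CPM under PBS and 0, 0 and 0.0677 CPM under cisplatin. HET levels were 0.243, 0.676 and 0.968 CPM under PBS and 0.48, 1.81 and 4.52 CPM under cisplatin. The highest under cisplatin were HET cisplatin 3 and 4 (4.52 and 3.58 CPM), where Nbl1 was near absent, and the others had 0.48 to 1.93 CPM. Under PBS, the libraries with Nbl1 near absent, HET PBS 6 and 1, had 0.968 and 0.781 CPM, and HET PBS 7 had 0.826 CPM. All 15 HET libraries had counts, 11 of 16 WT libraries had none, and WT PBS 6 alone held 22 of the 24 WT PBS counts. Under cisplatin the summed counts were 3 in WT and 569 in HET (ratio 175, 59.6 to 852), and the 8 HET libraries lay above all 8 WT libraries. Without the 5 libraries against their label, the log2 difference between genotypes under cisplatin was 6.48, against 7.02 (SE 0.84) with them. The Htr6 level was part of how those libraries were picked, so this is no independent check. The cisplatin value was 1.69 (SE 0.53) in HET, from 1.22 to 2.09 over the alternatives. In WT it was -2.71 (SE 1.2), and it turned to 0.24 without WT PBS 6.

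Of 9 other tested genes of the serotonin system, 4 were higher and 1 lower in WT, and 4 were higher and none lower in HET. Maoa, which degrades serotonin, rose by 1.62 (SE 0.11) in WT and by 1.89 (SE 0.12) in HET, and the receptor Htr2a rose by 1.24 (SE 0.24) and 0.81 (SE 0.24). Tmco4, on the other side of Htr6, did not pass, at 0.11 under PBS and 0.03 under cisplatin for HET against WT.

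On the deposited TPM scale, which corrects for transcript length so that genes can be compared, the order of medians in WT cisplatin was Zfp365 (6.56), Ano3 (4.61), Celf5 (2.54), Kcnh1 (0.465), Olfr1316 (0.39), Ngfr (0.34) and Htr6 (0). The ranges of Kcnh1, Olfr1316 and Ngfr overlapped, as did those of Zfp365 with Ano3 and of Ano3 with Celf5. In HET cisplatin the order was Zfp365 (6.46), Ano3 (3.97), Celf5 (1.75), Ngfr (0.725), Htr6 (0.705), Olfr1316 (0.535) and Kcnh1 (0.25).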

How the data were processed

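Bulk mRNA libraries of 31 kidneys were analysed from the deposited table. The authors deposited expected counts, TPM and FPKM per gene, as read from the labels and the values, and 12.52% of the expected counts are not whole. Per the submitters' processing notes, the tools were fastp, STAR and featureCounts, with builds named GRCm38 and mm10, whose roles and versions were not given in the sources used here. RNA, per the labels' protocols, had an integrity number over 8, and libraries were made with a KAPA mRNA kit.

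Expected counts were rounded and fitted with edgeR 4.0.16 (filterByExpr, TMM, quasi-likelihood F test, prior count 0.125) in R 4.3.3 as 4 group means over 31 libraries, with Benjamini-Hochberg adjustment over 19268 genes and a threshold of 0.05. The fit was tested on simulated data. DESeq2 1.42.0 and limma 3.58.1 were alternatives. CPM came from the same scaling, TPM as deposited, and FPKM was not used. Ratios of summed counts carry 95% intervals that cover counting error only. Gene coordinates (GRCm38) are from GENCODE M21, and promoters from RefSeq, where all 7 genes matched. Scores and likeness used log2 CPM with a prior count of 2.

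The members, the gene lists and the tests were chosen with earlier results of these data known. Named genes are the members, their nearest tested neighbours, up to 4 genes of a list with the smallest p in the WT cisplatin contrast, and the 3 genes most correlated with a member. Rest and the olfactory receptor cluster were added after their values were seen. Some genes of the lists are counted but not reported here by name.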

Additional observations from a re-analysis of the deposited data

Results flagged for a closer look

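In 4 of the 28 sets of a gene in a group, 1 library lay far from the rest of its group by the ratio of its gap to the range. The threshold flags about 1 in 20 sets of normally distributed values. Values near 0 are not of that kind, and a lone count among zeros is always flagged, so no excess over chance is read. Htr6 was at 0.756 CPM in WT PBS 6, against at most 0.0352 CPM in the other WT PBS libraries. Kcnh1 was at 7.97 CPM in the same library, against 1.67 to 4.43 CPM in the others. Zfp365 was at 11.8 CPM in WT cisplatin 6, against 24.2 to 35.2 CPM in the others. Olfr1316 was at 0.0347 CPM in HET PBS 4 and 0 in the other HET PBS libraries, which is a single count.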

How the results depend on the processing

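The counts of genes called for cisplatin (12174 in WT, 11374 in HET) stayed within 1.5 times under every alternative run, from 9943 and 9858 in the 600 series of animals to 14693 and 14392 by library totals, and were 11747 to 12347 and 10912 to 11728 when leaving out 1 library. Scaling by library totals moved the median of all genes to 0.45 (WT) and 0.46 (HET), with 11831 genes higher and 2862 lower in WT and 11992 and 2400 in HET, so small falls of list genes such as Rcor1 (-0.04 in WT, 0 in HET) depend on it. For HET against WT under PBS the count was 0, with 5 by DESeq2, 2 without the 5 libraries against their label and 0 to 2 when leaving out 1 library. Under cisplatin it was 1, with 2 by limma voom and 2 without those 5 libraries. For the injury relations it was 2, with 0 for Havcr1 alone and 0 to 3 when leaving out 1 library. Among called values and relations, those that changed sign were Htr6 in WT (0.24 without the 5 libraries and without WT PBS 6, and -3.61 to 0.24 when leaving out 1 library) and, with Havcr1 alone, r of Zfp365 (-0.72) and of Celf5 (-0.5) in WT cisplatin. Uncalled values near 0 also lay on both sides of it, such as Ngfr under cisplatin in WT (-0.09 to 0.4) and Zfp365 in HET against WT under PBS (-0.6 to 0.51). The causes were not tested, apart from the WT PBS 6 counts of Htr6. No paired analysis was possible because the replicate numbers only follow the order of deposition. At this depth, Olfr1316 and Htr6 rest on few counts in the low groups.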

Other observations

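The deposited TPM of Zfp365 does not follow its counts in WT PBS 5, which has 6 counts and 0.28 TPM, whereas WT PBS 8 has 6 counts and 0.04 TPM. Genes whose pattern over the 16 cisplatin libraries was most like the other members were Ms4a6c (0.884), Wipi1 (0.883) and Siglece (0.869) for Kcnh1, Ccdc50 (0.924), Fsd1l (0.909) and Dclk1 (0.894) for Ngfr, Gm42923 (0.827), Gm38148 (0.823) and Nsmce2 (0.82) for Olfr1316, and Ptafr (0.925), Rasl12 (0.864) and Twf1 (0.86) for Htr6. Of 4 tested olfactory transduction genes, Gnal, Omp and Reep1 rose in WT and Adcy3, Gnal and Omp in HET. The change of Omp, the olfactory marker protein, was 1.72 (SE 0.23) in WT and 1.5 (SE 0.25) in HET. Rtp2 had no counts in any group.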
